A study of Equus caballus with 2 samples.

Results

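The PDGF ligands and receptors are 7 of the 21426 genes listed for the equine endometrial fibroblasts. They were taken by gene symbol: the ligand genes *PDGFA*, *PDGFB*, *PDGFC* and *PDGFD*, the receptor genes *PDGFRA* and *PDGFRB*, and the receptor-like gene *PDGFRL*. All 7 had UMIs in both libraries. The levels of 4 members averaged at least 10 counts per 1000000 UMIs (CPM) over the libraries, those of *PDGFD* and *PDGFRL* lay between 1 and 10 CPM, and that of *PDGFB* lay below 1 CPM.

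Platelet-derived growth factors are secreted dimers that drive the division, migration and survival of mesenchymal cells. *PDGFA* and *PDGFB* encode chains that are cut inside the cell, whereas those of *PDGFC* and *PDGFD* leave it with a CUB domain that an extracellular protease must remove before they can bind. PDGF-AA and PDGF-CC act through the α receptor, PDGF-BB through both receptors and PDGF-DD mainly through the β receptor, and PDGF-CC can also engage the αβ receptor pair. Both receptors are tyrosine kinases carried by fibroblasts, and the β receptor also marks pericytes and vascular smooth muscle. TGF-β1 is the best known inducer of the contractile myofibroblast state.

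Fibroblasts from the endometrium of 4 mares, at passage 3, were grown on collagen-coated hydrogels and moved to medium with BSA in place of serum. For 24 h the cells of one library were given 10 ng/ml human recombinant TGF-β1, and the control cells were given nothing further. The cells of the 4 mares were pooled in each library, and the droplet libraries counted the 3′ ends of transcripts. MFGE8-treated cells were not analysed here.

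Each condition was 1 library without a replicate, so no test was made, and the condition cannot be told apart from the preparation of its library. Intervals are at the 95% level and hold counting error and nothing else. Those of levels, shares and ratios are exact (Clopper-Pearson, for ratios on the split of the UMIs between the libraries), and those of differences in shares join the exact intervals of both shares by Newcombe's square-and-add rule. The study's filters ask for a minimum of 20000 UMIs and 3500 genes and for mitochondrial UMIs under 4%. They left 3865 control cells and 4513 TGF-β1 cells, with a median of 50313 and 43142 UMIs. The libraries shared 6 barcodes, of which 2 were kept in both. All 7 fibroblast markers had at least 1 CPM, and the defining epithelial (*EPCAM*, *CDH1*), endothelial (*PECAM1*, *CDH5*) and immune (*PTPRC*) markers had at most 0.043 CPM. Other genes of those lists were not all low. The epithelial list had 114 CPM in control and 4.74 CPM in TGF-β1 cells, almost all of it *KRT8*, and the immune list 56.7 and 52.9 CPM, almost all of it *CD68* (42.6 and 43.1 CPM) and *CD14* (13.99 and 9.75 CPM). The endothelial list had 0.926 and 0.610 CPM. Of the 9 mural cell markers, 5 had at least 1 CPM, led by desmin, and together they had 749 CPM in control and 659 CPM in TGF-β1 cells. No cell type was present that should lack the PDGF genes, so free RNA could not be measured. Shares of cells are given after each cell was thinned at random to 20000 UMIs, because depth differed between the libraries.

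Among the 4 members with at least 10 CPM, 1 was more than 2-fold higher in the TGF-β1 library (*PDGFC*) and 1 more than 2-fold lower (*PDGFRA*). Of all 7658 genes at that level, 2.30% were more than 2-fold higher and 2.13% more than 2-fold lower, 4.43% in all. *PDGFRL* was also more than 2-fold higher, against 3.45% of the 12116 genes with at least 1 CPM, and so was *PDGFB*, against 6.43% of the 17191 genes with more than 3 UMIs in either library. *PDGFA* was higher and *PDGFRB* and *PDGFD* were lower by less than 2-fold.

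*PDGFC* (ENSECAG00000019512) is the ligand gene with the widest shift in these libraries among those with at least 10 CPM. It had 20398 UMIs (96.9 CPM) in control and 52960 UMIs (241 CPM) in TGF-β1 cells, a 2.49-fold higher level (log2 1.31, 95% interval 1.29 to 1.34). After thinning, 68.9% of control cells (67.4% to 70.4%) and 93.4% of TGF-β1 cells (92.6% to 94.1%) had at least 1 UMI. A share of cells with a UMI is higher with more transcript in each cell, so it is no separate count of expressing cells. Cells with 3 or more *PDGFC* UMIs made up 26.4% of the control and 67.8% of the TGF-β1 library, and the mean per cell was 1.82 and 4.73 UMIs. Cells varied more than a Poisson draw of equal mean would, with a variance over the mean of 2.61 in control and 3.27 in TGF-β1 cells. Cells with 0 UMIs were 31.1% and 6.63%, where equal expression in every cell would leave 16.2% and 0.885%.

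*PDGFA* (ENSECAG00000038632) had 4993 UMIs (23.7 CPM) in control and 6991 UMIs (31.8 CPM) in TGF-β1 cells, 1.34-fold higher (log2 0.42, 0.37 to 0.48). Its UMIs were found in 36.6% (35.1% to 38.2%) and 44.8% (43.3% to 46.3%) of thinned cells. The variance over the mean was 1.16 and 1.21, little above a Poisson spread.

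*PDGFB* (ENSECAG00000018472) was the scarcest member in both libraries and had the highest ratio. It had 31 UMIs (0.147 CPM) in control and 232 UMIs (1.06 CPM) in TGF-β1 cells, a 7.17-fold difference with a wide interval (log2 2.84, 2.30 to 3.43). Of the thinned cells, 12 in control (0.310%, 0.161% to 0.542%) and 99 in TGF-β1 (2.19%, 1.79% to 2.66%) had a UMI, and no thinned cell had more than 1. Shares this low were not compared with background, since free RNA was not measured.

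*PDGFD* (ENSECAG00000024746) went the other way from the other ligand genes, by little. It had 1418 UMIs (6.74 CPM) in control and 1312 UMIs (5.97 CPM) in TGF-β1 cells (log2 -0.17, -0.28 to -0.06). The share of cells with a UMI was 9.13% (8.24% to 10.1%) and 8.27% (7.48% to 9.11%), and the difference of -0.868 percentage points (-2.10 to 0.357) was not detectable at this depth. Few cells carried much of it. Cells with 3 or more *PDGFD* UMIs numbered 26 in control and 42 in TGF-β1, and held 22.7% and 30.2% of its thinned UMIs.

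All ligand UMIs together had 128 CPM in control and 279.9 CPM in TGF-β1 cells. The share of them from *PDGFC* was 76.0% in control and 86.1% in TGF-β1 cells, that from *PDGFA* 18.6% and 11.4%, and that from *PDGFD* 5.28% and 2.13%. These shares compare the libraries. They do not rank the genes, since UMIs count 3′ ends and genes differ in how well these are captured and annotated.

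**Figure D1:**
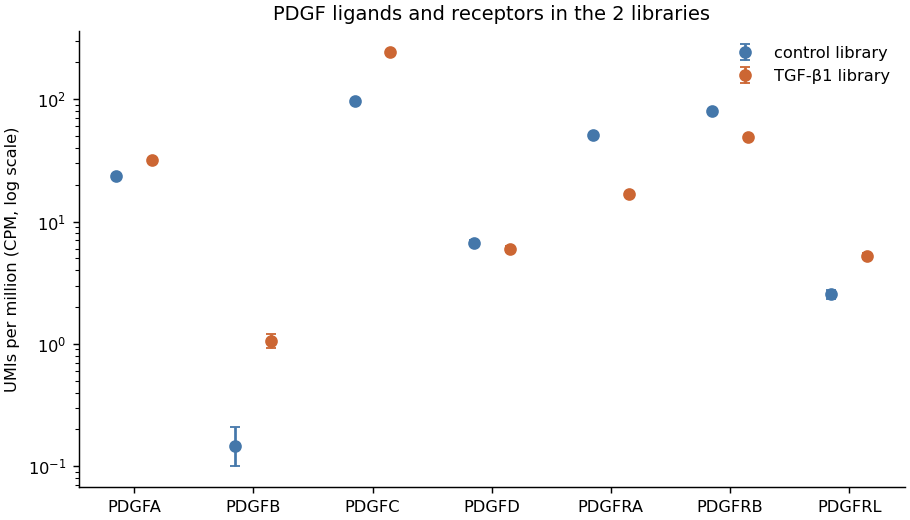
Level of each PDGF gene in the control (blue) and TGF-β1 (orange) library, in CPM on a log axis, 1 point per library with its 95% counting interval. The 2 receptor genes and PDGFD lie lower in the TGF-β1 library, and PDGFA, PDGFB, PDGFC and PDGFRL lie higher.

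*PDGFRA* (ENSECAG00000018176), which encodes the α receptor, was the member with the lowest ratio. It had 10638 UMIs (50.5 CPM) in control and 3664 UMIs (16.7 CPM) in TGF-β1 cells, a 3.03-fold lower level (log2 -1.60, -1.65 to -1.55), and 49 of the 7658 genes with at least 10 CPM had a lower ratio. The share of cells with a UMI was 54.4% in control (52.8% to 55.9%) and 25.7% in TGF-β1 (24.4% to 27.0%). Cells with 3 or more UMIs were 12.7% of the control library and 1.26% of the TGF-β1 library. The variance over the mean was 2.03 in control and 1.29 in TGF-β1 cells.

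*PDGFRB* (ENSECAG00000024793), for the β receptor, was lower too, by a smaller factor. It had 16863 UMIs (80.1 CPM) and 10772 UMIs (49.0 CPM), a 1.63-fold lower level in TGF-β1 cells (log2 -0.71, -0.74 to -0.67). Cells with a UMI came to 75.7% in control (74.3% to 77.0%) and to 58.5% in TGF-β1 (57.0% to 59.9%). The counting intervals of the ratios of the 2 receptors did not overlap. Of the UMIs of both receptors, *PDGFRA* made up 38.7% in control and 25.4% in TGF-β1 cells, while their sum was 131 and 65.7 CPM.

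*PDGFRL* (ENSECAG00000021604) encodes a secreted protein that resembles the outer part of the PDGF receptors and has no kinase domain. It had 534 UMIs (2.54 CPM) in control and 1142 UMIs (5.20 CPM) in TGF-β1 cells, 2.05-fold higher (log2 1.03, 0.89 to 1.19). The share of cells with a UMI was 4.86% (4.21% to 5.59%) and 9.59% (8.75% to 10.5%). The direction was opposite to that of both kinase receptors.

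**Figure D2:**
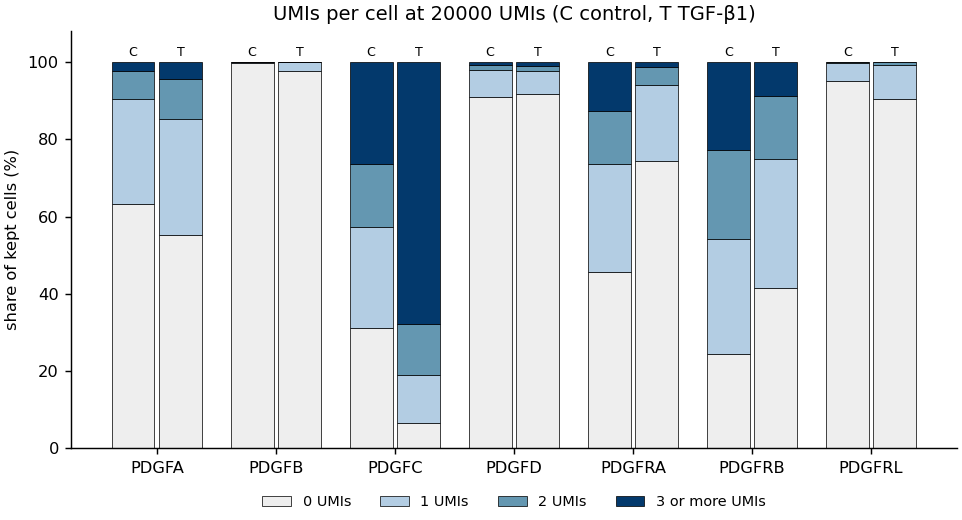
Share of kept cells (y axis, percent) with 0, 1, 2, and 3 or more UMIs of each PDGF gene after thinning to 20000 UMIs, control (C) beside TGF-β1 (T). The darkest part, 3 or more UMIs, is 26.4% and 67.8% for PDGFC, 12.7% and 1.26% for PDGFRA, and 22.6% and 8.84% for PDGFRB.

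The kept cells were clustered again with the 7 members left out of the variable genes, which gave 8 rebuilt clusters numbered 0 to 7. Cluster 6 had 4 cycling markers among its 10 leading genes and is called cycling-like, and the others are named by number. The clusters hold between 106 and 901 control and between 57 and 1218 TGF-β1 cells. They show whether a difference was carried by a subset of the cells, and they are not replicates.

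*PDGFC* was more than 2-fold higher in 8 of 8 clusters (log2 1.10 to 1.53) and *PDGFRA* more than 2-fold lower in 8 of 8 (-1.83 to -1.36). *PDGFRB* was lower in 8 of 8, never by more than 2-fold (-0.89 to -0.52). *PDGFA* was higher in 8 of 8, with the counting interval above 0 in 7 (0.04 to 0.72). *PDGFRL* was higher in 8 of 8, more than 2-fold in 3 (0.58 to 1.54). *PDGFD* was lower in 7 and higher in 1, with the interval below 0 in 3 (-0.63 to 0.26). *PDGFB* had enough UMIs for a ratio in 3 clusters, and was more than 2-fold higher in all 3 (1.38 to 3.40). When cells were clustered without integration of the libraries, *PDGFC* was higher in 5 of 7 clusters and *PDGFRA* lower in 5 of 6, and *PDGFB* was lower in the 1 cluster with a ratio.

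**Figure D3:**
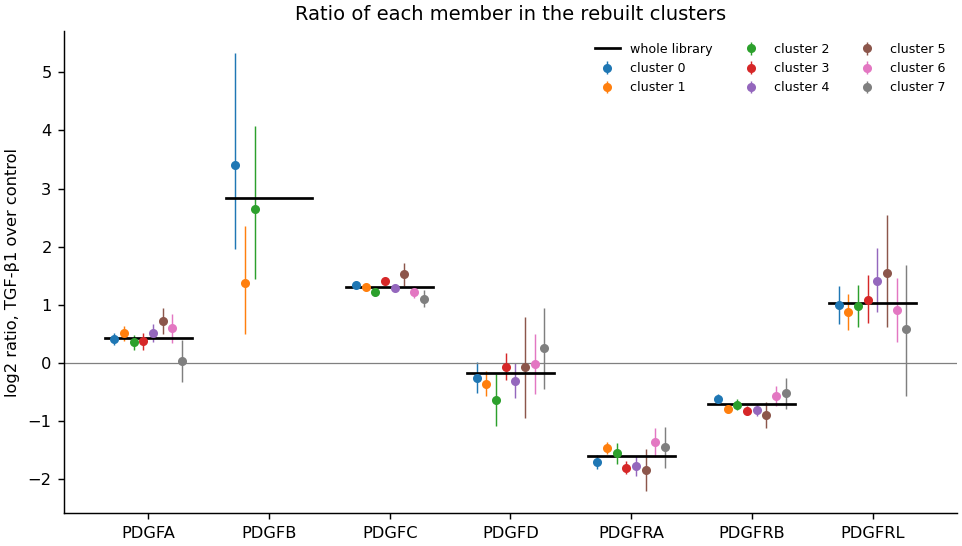
Log2 ratio of TGF-β1 over control (y axis) for each PDGF gene in the rebuilt clusters (coloured points with 95% counting intervals) and in the whole libraries (black line). PDGFC lies between 1.10 and 1.53 and PDGFRA between -1.83 and -1.36 in the 8 clusters, while PDGFD lies on both sides of 0.

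Levels also differed between clusters within a library. *PDGFC* ranged in control cells from 31.5 CPM in cluster 5, led by the complement gene *C1R*, to 146 CPM in cluster 3, led by the basement membrane collagen *COL4A3*, and in TGF-β1 cells from 90.9 to 388 CPM in the same clusters. The ratio between highest and lowest cluster was 4.65 in control and 4.27 in TGF-β1 cells. The order at both ends was thus kept while the level was higher throughout. *PDGFRA* ranged from 30.6 CPM (cluster 2) to 82.4 CPM (cluster 7) in control. In TGF-β1 cells it ranged from 9.60 CPM (cluster 5) to 30.3 CPM (cluster 7). Every control cluster thus lay above every TGF-β1 cluster, but the ranges all but met, and the 30.3 CPM came from 84 UMIs in 57 cells. *PDGFRB* ranged from 56.6 to 104 CPM in control and from 30.6 to 58.8 CPM in TGF-β1 cells, lowest in cluster 5 and highest in cluster 3 in both. *PDGFA* was highest in cluster 7 of the control (34.7 CPM) and in cluster 5 of the TGF-β1 library (50.0 CPM), and lowest in cluster 1 in both (18.5 and 26.3 CPM). *PDGFRL* was highest in the cycling-like cluster in both libraries (4.58 and 8.61 CPM) and lowest in cluster 4 (1.39 and 3.72 CPM).

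Over the 8 clusters, *PDGFRA*, *PDGFRB*, *PDGFC* and *PDGFD* went together, with a Pearson r of 0.72 to 0.90 for their pairs in control and 0.75 to 0.96 in TGF-β1 cells. The highest r was that of *PDGFRA* with *PDGFD* in both libraries. *PDGFA* ran against *PDGFC* (-0.31 and -0.80). These are descriptions over 8 points that share a library and a clustering, with no p.

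In single cells, both receptor transcripts were present together in 43.1% of the control and 16.1% of the TGF-β1 library. Cells with *PDGFRA* alone were 11.2% and 9.55%, cells with *PDGFRB* alone 32.5% and 42.4%, and cells with neither 13.1% and 32.0%. From control to TGF-β1 the share with both differed by -27.0 percentage points, that with neither by 18.8 points and that with *PDGFRB* alone by 9.84 points. With cells thinned to 10000 UMIs these differences were -14.5, 21.9 and -1.19 points, so the size of the first and the direction of the last depended on depth. The difference for *PDGFRA* alone was -1.68 points, and -6.20 points at 10000 UMIs. The classes are cut at 1 UMI in a cell of 20000 UMIs and are ranges, not cell types.

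The receptors were found in the same cells somewhat more often than their single shares would give. *PDGFRA* was found in 57.0% (55.2% to 58.8%) of control cells with *PDGFRB* and 46.1% (42.9% to 49.4%) of those without, and in TGF-β1 cells in 27.6% (25.9% to 29.3%) and 23.0% (21.1% to 25.0%). *PDGFA* and *PDGFC* were found with the α receptor in fewer TGF-β1 than control cells. *PDGFC* and *PDGFRA* shared 37.2% of control cells (35.6% to 38.7%) and 24.3% of TGF-β1 cells (23.1% to 25.6%), and *PDGFA* and *PDGFRA* in 19.6% (18.3% to 20.9%) and 10.6% (9.69% to 11.5%). The size of these differences depended on depth: for *PDGFC* with *PDGFRA* it was -12.8 percentage points, -6.00 at 10000 UMIs and -22.7 without thinning, and for *PDGFA* with *PDGFRA* -9.02, -3.73 and -16.8 points. *PDGFC* and *PDGFRB* were found together in 53.2% (51.6% to 54.8%) and 54.6% (53.2% to 56.1%), a difference of 1.47 percentage points (-0.69 to 3.63) that was -2.93 points without thinning, so that no direction is read from it. The shares with *PDGFB* and *PDGFRA* were 0.207% (0.0894% to 0.407%) and 0.399% (0.237% to 0.630%), with overlapping intervals. Those with *PDGFB* and *PDGFRB* were 0.233% and 1.35%, and those with *PDGFD* and *PDGFRB* 7.22% and 5.32%. The difference for *PDGFB* with *PDGFRB* was 1.12 points, 0.391 at 10000 UMIs and 3.22 without thinning. For *PDGFD* with *PDGFRB* it was -1.90, -1.74 and -4.62 points.

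The share of cells with both was between 0.92 and 1.10 times the product of the single shares for all these pairs other than those with *PDGFB*. Of these pairs, *PDGFA* with *PDGFRA* in TGF-β1 cells lay furthest below 1, and *PDGFA* was found in 41.2% (38.3% to 44.1%) of *PDGFRA*-positive and 46.1% (44.4% to 47.8%) of *PDGFRA*-negative cells. *PDGFC* was found in 70.3% of control cells with *PDGFRB* and 64.7% of those without, and in 93.4% and 93.3% of TGF-β1 cells. For a gene found in nearly every cell this ratio cannot move far from 1, and levels show more. From 0 to 3 or more *PDGFRB* UMIs, *PDGFD* went from 4.52 to 8.51 CPM in control and from 4.94 to 9.52 CPM in TGF-β1 cells, and *PDGFC* from 84.2 to 94.97 CPM and from 223 to 273 CPM.

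Counted by cell, at least 1 ligand was present in 81.3% of the control and 96.6% of the TGF-β1 library, and at least 1 of the 2 kinase receptors in 86.9% and 68.0%. Cells with a ligand and no receptor made up 10.3% in control and 30.8% in TGF-β1, and the share with a receptor and no ligand was 15.96% and 2.26%.

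**Figure D4:**
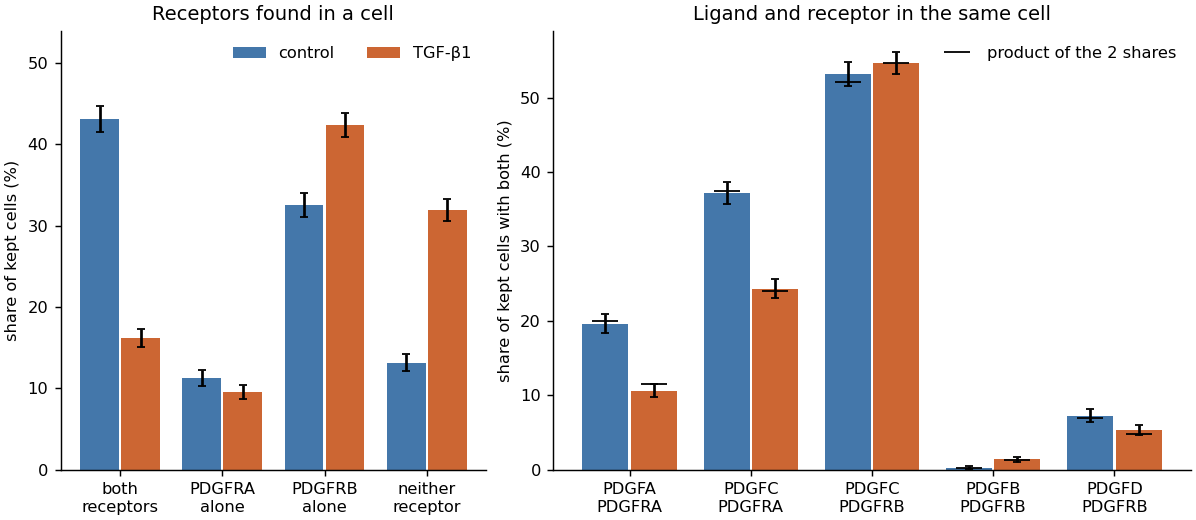
Left, share of kept cells (percent) in which both, 1 or neither of the receptor transcripts was found; right, share with both genes of a ligand and receptor pair, with a black dash at the product of the 2 single shares. Bars are the 2 libraries with 95% counting intervals; cells with both receptors are 43.1% of control and 16.1% of TGF-β1 cells.

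*PDGFRA* separated cells by contractile transcripts within each library. *ACTA2*, the smooth muscle actin that marks myofibroblasts, had 4390.1 CPM in the 1764 control cells with 0 *PDGFRA* UMIs, 3192 CPM in the 1080 cells with 1, 2199 CPM in the 529 cells with 2 and 1406 CPM in the 492 cells with 3 or more. In TGF-β1 cells it had 4928, 4129, 3411 and 2346 CPM, from 3354, 887, 215 and 57 cells. The level of *ACTA2* was lower at each step of *PDGFRA* in both libraries. At every step it was higher in the TGF-β1 than in the control library. *TAGLN*, the actin-binding protein transgelin, went the same way, from 5312 to 2547 CPM in control and from 7310.3 to 4697 CPM in TGF-β1 cells. *PDGFRB* went with *PDGFRA*, from 70.6 to 106 CPM in control and from 45.2 to 71.1 CPM in TGF-β1 cells.

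*CFD*, the complement factor D gene, was higher with more *PDGFRA* in control cells, with 141, 239.6, 409 and 567 CPM. In TGF-β1 cells it was between 31.8 and 65.6 CPM, without the same order at the highest step. These steps were chosen after values for the receptor classes had been seen.

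The relation with *ACTA2* held within the clusters. Cells with a *PDGFRA* UMI had less *ACTA2* than cells without in 8 of 8 clusters of the control (log2 -1.13 to -0.52) and in 8 of 8 of the TGF-β1 library (-0.46 to -0.19), with every counting interval below 0. *TAGLN* was lower with *PDGFRA* in 8 of 8 clusters of both libraries as well. *PDGFRB* was higher with *PDGFRA* in 8 of 8 control clusters and in 7 of 8 in TGF-β1, with the interval above 0 in 6 and 3. *PDGFC* was higher in 4 and lower in 4 clusters of either library, with the interval above 0 in 3 and below 0 in 2 control clusters, and above 0 in 3 and below 0 in 0 TGF-β1 clusters. *CFD* was higher with *PDGFRA* in 7 of 8 control clusters and in 4 of 8 in TGF-β1, with the interval above 0 in 6 and 4 and, in 1 control cluster, below 0. Cells were not assigned to mares here, so the part of the mares in these relations was not tested.

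**Figure D5:**
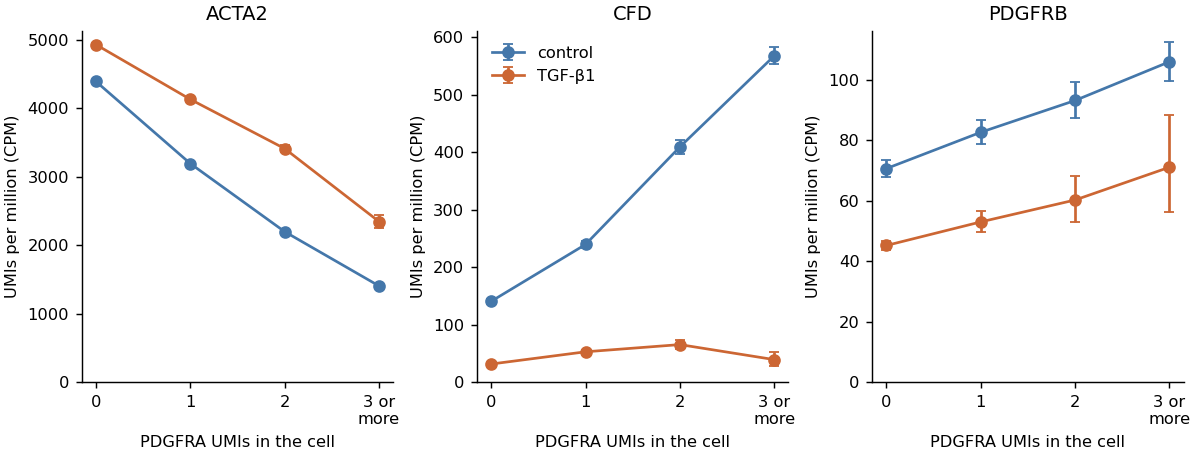
Level (CPM, thinned cells, axis from 0) of ACTA2, CFD and PDGFRB in cells with 0, 1, 2, and 3 or more PDGFRA UMIs, control in blue and TGF-β1 in orange, with 95% counting intervals. ACTA2 is lower and PDGFRB higher at each step in both libraries; CFD goes from 141 to 567 CPM in control.

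*PDGFRB* separated cells in the same direction, with a narrower range of *ACTA2*. From 0 to 3 or more *PDGFRB* UMIs, *ACTA2* went from 3753 to 2621 CPM in control and from 5063 to 3925 CPM in TGF-β1 cells, and *CFD* from 170.0 to 393 CPM and from 32.4 to 78.3 CPM. For *PDGFC* the direction differed between the libraries, from 0 to 3 or more *PDGFC* UMIs. *ACTA2* went from 3142 to 3471 CPM in control and from 4910.2 to 4587 CPM in TGF-β1 cells. *TAGLN* went from 4254 to 4505 CPM in control and from 7706 to 6864 CPM in TGF-β1 cells. *PDGFRA* went from 55.0 to 58.4 CPM in control and from 13.9 to 17.8 CPM in TGF-β1 cells. *PDGFD* went with *PDGFC*, from 4.83 to 9.25 CPM in control and from 3.85 to 6.83 CPM in TGF-β1 cells.

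Other cell states set *PDGFRA* apart too. In control cells it had 68.1 CPM in the 1725 cells with *CFD* and 42.2 CPM in the others, 30.7 CPM in the 184 cells with amphiregulin (*AREG*, an EGF receptor ligand) and 54.9 CPM in the others, and 45.2 against 56.6 CPM with and without the keratin *KRT8*. In TGF-β1 cells the levels with and without *AREG* were 14.8 and 17.3 CPM, and with and without *IGFBP3*, a secreted IGF-binding protein, 14.8 and 18.0 CPM. The 176 control cells with the adhesion molecule *VCAM1* had 69.3 CPM of *PDGFRA* and 70.2 CPM of *PDGFC*, against 53.0 and 91.9 CPM in the rest. *PDGFB* had 1.45 CPM (52 UMIs) in TGF-β1 cells with *IGFBP3* and 0.864 CPM (47 UMIs) in those without (log2 0.75, 0.15 to 1.35). With *CFD* it was lower, with 0.554 CPM (8 UMIs) against 1.20 CPM (91 UMIs) without (log2 -1.12, -2.37 to -0.08).

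The genes around the receptors were read from lists of known function. Of the 10 genes that process or bind the ligands, 9 had at least 1 CPM, with a median log2 ratio of 0.00, where all genes at that level had -0.01. None was more than 2-fold higher and 1 was more than 2-fold lower, *PLAT*, with 28.7 CPM in control and 10.4 CPM in TGF-β1 cells (log2 -1.47). Of all genes at that level, 3.45% were more than 2-fold higher and 3.46% more than 2-fold lower. *PLAT* encodes tissue plasminogen activator, a protease known to release active PDGF-CC from its CUB domain. *PLAU*, for urokinase, a protease known to act on PDGF-DD, had 302 and 281 CPM, and was named after its value was seen.

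The receptors' adaptors and effectors differed little as a list. Of 34 genes, 31 had at least 1 CPM, with a median of -0.05, 14 higher and 17 lower, all within 2-fold (-0.77 to 0.68). The negative regulators, phosphatases and ubiquitin ligases among them, gave 12 genes with a median of 0.08, 8 higher and 4 lower, again within 2-fold (-0.51 to 0.47). The shares of all genes past 2-fold are those given above. Of the related receptor kinases *KIT*, *CSF1R* and *FLT3*, *FLT3* alone reached 1 CPM, with 6.74 and 5.20 CPM.

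Of the genes that respond early to growth factors, 20 had at least 1 CPM. Of these, 13 were lower and 7 higher, where 6219 of all 12116 genes at that level were lower. The median was -0.74, against -0.01 over all genes, and 5 of the 20 were more than 2-fold lower, against 3.46% of all genes. The 5 encode transcription factors: *FOS* (194 and 64.3 CPM, log2 -1.59), *EGR1* (175 and 70.9 CPM, -1.30), *NR4A1* (88.3 and 38.1 CPM, -1.21), *EGR2* (17.1 and 7.75 CPM, -1.14) and *JUN* (335 and 157 CPM, -1.09). They respond to many signals, cell dissociation among them, and cells of both libraries were harvested with trypsin. The part of handling in these values was not tested.

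Markers of cell state that could move with the receptors were counted as well. Of 9 cycling markers, 8 were lower in TGF-β1 cells, with a median of -0.67, and *CDC20* (-1.36) and *CDK1* (-1.23) were more than 2-fold lower. Of all 12116 genes with at least 1 CPM, 6219 were lower and 3.46% more than 2-fold lower. Cells with 3 or more cycling markers numbered 92 of 3865 in control and 100 of 4513 in TGF-β1. Leaving out cells with 3 or more cycling markers kept the direction of all 7 members. Among the fibroblast markers the surface protein gene *THY1* was more than 2-fold lower (216 and 87.5 CPM, -1.30), and among the mural cell markers *MCAM* (5.78 and 1.75 CPM, -1.72). The mural markers *ABCC9* and *KCNJ8* were at or near 0 in both libraries. Among the epithelial markers *KRT8* was lower (114 and 4.48 CPM, -4.67), while *EPCAM* had 1 and 3 UMIs.

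The genes most like each member were ranked by Pearson r over the 16 sums by library and cluster, among genes with at least 10 CPM. For *PDGFRA* these were *EGR1* (0.97), *NR2F1*, *BTG2*, *TNFRSF1B* and *NFE2L2*. For *PDGFRB* they were *CPT1A* (0.97), *KLHL13*, *SLIT3*, *SMAD1* and *TEF*. For *PDGFC* they were *GPAT4* (0.98), *RPS6KA2*, *DLC1*, *ACVR1* and *FUT8*, and for *PDGFA* *NAGK* (0.93), *RAB5IF*, *FAM117A*, *PIGP* and *UTP11*. The 16 points share 2 libraries, so that a gene with the same difference between them scores high. Within the 8 control and the 8 TGF-β1 sums alone, r was 0.85 and 0.90 for *EGR1* with *PDGFRA*, and 0.96 and 0.97 for *GPAT4* with *PDGFC*. It was lower in control for *BTG2* with *PDGFRA* (0.71 and 0.95) and for *TNFRSF1B* with *PDGFRA* (0.76 and 0.88).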

How the data were processed

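The authors deposited raw UMI counts for every gene in every cell barcode, from Cell Ranger (7.1.0 in the methods, 8.0.1 in the file header) against EquCab3.0. No normalization, filter or doublet removal had been applied to the called cells. The study removed doublets by genotype in the reads, which was not repeated here. Scrublet, in scanpy 1.11.5, called 2 doublets in control and 0 in TGF-β1. That is too few to use, and its scores served only for an alternative.

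Kept cells (88.2% of 4384 control and 88.1% of 5124 TGF-β1 barcodes) held 210497250 and 219731144 UMIs. Counts were summed in Python 3.11.15 (numpy 2.4.6, scipy 1.17.1, pandas 2.3.3) and scaled to CPM, and figures drawn in matplotlib 3.10.9. Ratios are TGF-β1 over control, log2 without a pseudocount, given for a cluster where both libraries had more than 3 UMIs. Each kept cell was thinned once to 20000 UMIs, where 1 UMI is worth 50 CPM. Clusters came from Seurat 5.3.0 (SeuratObject 5.2.0, R 4.3.3), with 2000 variable genes from which the members were removed, 30 dimensions, canonical correlation integration and resolution 0.5. The ratio and its counting interval were tested on simulated Poisson sums of genes, which hold no spread between cells. Co-detection, receptor classes and clusters were not tested on simulated data.

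The members, gene lists and rules were chosen with earlier results of these data known. Named genes are the members, the list genes more than 2-fold apart with at least 1 CPM (at most 5 in each direction), the 5 genes most like each member with at least 10 CPM, on log2(CPM + 1), and the context genes *ACTA2*, *TAGLN*, *CFD*, *VCAM1*, *IGFBP3*, *AREG* and *KRT8*. Other genes in the text (cell type markers, leading genes of clusters, related kinases and *PLAU*) were named after their values were seen. The symbols *NCK1*, *CRKL*, *PTPRJ*, *PHLDA1*, *CCL2*, *MKI67*, *KRT18* and *KRT19* were not found. Alternatives were other cell filters, doublet and cycling cell removal, scalings, cluster makeup, thinning depths, resolutions, no integration, CPM minimums and a 1.5-fold limit. The study's edgeR analysis was not run. No gene sequence or position was used.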

Additional observations from a re-analysis of the deposited data

Results flagged for a closer look

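Barcodes left out by the cell filter, 519 in control and 611 in TGF-β1, were not part of any comparison above, and 4 members had a higher level among them in TGF-β1 than in control, 3 of them with a counting interval of the ratio above 0. *PDGFC* had 569 CPM against 206 CPM in the control barcodes left out, *PDGFA* had 30.3 CPM against 19.0 CPM, and *PDGFRL* had 8.52 CPM against 1.58 CPM. *PDGFB* had 9 UMIs (2.02 CPM) against 3 UMIs (0.792 CPM), and its interval held 0. *PDGFRA* (32.5 against 86.9 CPM) and *PDGFRB* (94.6 against 166 CPM) were lower there. These barcodes had a median of 3728 and 6107 UMIs, and a median of 3.23% and 10.2% mitochondrial UMIs, and the part of these differences in the values was not tested.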

How the results depend on the processing

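The log2 ratios of the 7 members kept their sign in 70 of 70 alternatives, with ranges of 0.41 to 0.45 for *PDGFA*, 2.76 to 2.91 for *PDGFB*, 1.31 to 1.36 for *PDGFC*, -0.24 to -0.13 for *PDGFD*, -1.67 to -1.59 for *PDGFRA*, -0.74 to -0.70 for *PDGFRB* and 1.00 to 1.06 for *PDGFRL*. Values outside the counting interval were 1.34 for *PDGFC* without cells above the 98th percentile of UMIs, and 1.36 for *PDGFC*, -1.67 for *PDGFRA* and -0.74 for *PDGFRB* as a mean of per-cell CPM. Differences in shares and pairs kept their sign in 110 of 115 alternatives. Without thinning, and with 2 or more UMIs asked for, the share difference of *PDGFC* was 10.1 and 38.3 points, that of *PDGFRL* 7.69 and 0.495 points, that of *PDGFB* 3.68 and 0 points, and that of *PDGFD* -3.20 and 0.164 points. The pair *PDGFC* and *PDGFRB* turned to -2.93 points without thinning, and *PDGFRL* with *PDGFRA* had between -0.104 and 0.442 points. Thinning to 10000 UMIs, and no thinning, gave differences of -3.73 and -16.8 percentage points for *PDGFA* with *PDGFRA*, -6.00 and -22.7 for *PDGFC* with *PDGFRA*, and 0.391 and 3.22 for *PDGFB* with *PDGFRB*. No thinning gave -4.62 for *PDGFD* with *PDGFRB*. At 10000 UMIs the difference was 21.9 points for cells with neither receptor and -1.19 for cells with *PDGFRB* alone, which reversed. By construction, detection of 2 genes at once moves with depth. Without integration, clusters in the direction of the whole library were 5 of 7 for *PDGFC*, 5 of 6 for *PDGFRA*, 6 of 7 for *PDGFRB*, 5 of 6 for *PDGFA* and 0 of 1 (0%) for *PDGFB*, and the cause was not tested. At 10 CPM the median of the adaptors and effectors was 0.014 in place of -0.05. Genes more than 2-fold apart were 339, against 970 at 1.5-fold and 837 at 1 CPM. A UMI minimum of 10000 was not run for shares, since shallower cells cannot be thinned to 20000 UMIs. No paired analysis was possible because the cells were not assigned to mares here, and the labels pair no other samples.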
